A study of Homo sapiens with 16 samples.

Results

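Transcripts of TERT, the catalytic reverse transcriptase of telomerase, were followed together with those of 8 proteins that cap telomeres or assemble on telomerase. The 9 genes, which are TERT, TERF1, TERF2, TERF2IP, POT1, ACD, TINF2, DKC1 and TEP1, were taken by name from 59609 genes in both deposited RNA tables. They had been picked with the levels in these same libraries in view, so the levels and changes below are a description and carry no test. Where one of the 9 is said to pass or miss a threshold, that too is only a description. TERT was the gene that stood apart: it was 5.70 times as high with sorafenib as with DMSO and 2.76 times as high with MT1G overexpression as with empty vector. For the other 8 genes the ratio of the group means stayed between 0.66 and 1.41 in both experiments.

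The study used cells labelled Huh7, a human hepatocellular carcinoma line. Polyadenylated RNA was sequenced in 4 groups of 3 libraries: cells given sorafenib (an oral kinase inhibitor used against liver cancer) with cells given its solvent DMSO, and cells overexpressing MT1G (a metallothionein, a small metal-binding protein) with cells carrying an empty vector. Open chromatin was mapped by ATAC-seq, in which a transposase cuts accessible DNA, in 2 libraries with sorafenib, numbered 3 and 4, and 2 libraries with DMSO, numbered 1 and 2. The labels gave no dose, no time, no clone and no method of delivery for MT1G, and do not tell whether the replicates were grown apart. The p-values given for other genes therefore cover only the variation among these libraries, which may be technical.

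Telomeres are repeats at chromosome ends that shorten with each division, because the replication machinery cannot copy the very end of a strand. Telomerase restores them: TERT copies a template in the RNA subunit TERC, which dyskerin (DKC1) and its partners stabilise. The shelterin complex covers the repeats, with TERF1 and TERF2 bound to double-stranded DNA, POT1 bound to the single-stranded overhang, ACD (TPP1) tethering POT1 to TINF2 (TIN2), TINF2 joining them to TERF1 and TERF2, and TERF2IP (RAP1) held by TERF2. TERT is silent in most adult tissues, including resting liver, and its reactivation is among the commonest events in hepatocellular carcinoma.

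Sequencing gave 16549330 to 26781600 reads in genes per RNA library. MT1G itself had 189, 158 and 194 normalized read counts (reads divided by the size factor of the library) in the sorafenib libraries and 0 in each DMSO library, and 140.2, 130.2 and 179 in the MT1G libraries and 0 in each vector library. Of 12 genes that mark hepatocytes or Huh7 cells, 11 stayed under 10 normalized read counts in every RNA library, and ALB, APOB, APOH and GPC3 were at 0 in all 12. HNF4A was the remaining marker. These values go against the label Huh7, whose defining liver markers were at or near 0, so the identity of the cells is in question and the name is used below only as the label. Summed over the list, the markers had 101 to 158 normalized read counts with sorafenib, against 339 to 354 with DMSO, and 204 to 234 with MT1G, against 304 to 345 with vector. Fibroblast or stellate markers, mainly LUM and COL1A1, summed to 1039 to 1079 with sorafenib, against 2335 to 2590 with DMSO, and 2640 to 3457 with MT1G, against 2156 to 2202 with vector. COL1A1 varied little, from 421 to 495 over the sorafenib and DMSO libraries and from 381 to 481 over the MT1G and vector libraries. LUM ran from 405 to 1872 and from 1464 to 2517, and DCN from 50.6 to 150 and from 191 to 494. The leukocyte list summed to 22.4 to 27.2 with sorafenib, against 28.9 to 42.6 with DMSO, and 19.8 to 31.8 with MT1G, against 28.6 to 31.8 with vector, with CD3E at 0 in all 12. The endothelial list summed to 35.4 to 56.2 with sorafenib, against 66.5 to 75.3 with DMSO, and 39.5 to 48.7 with MT1G, against 46.5 to 75.7 with vector. The part of these marker differences in the results below was not tested. In bulk RNA, fewer cells of a type and less RNA per cell cannot be told apart.

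The promoters of 4 of the genes are shown because their data contrast: TERT rose most and had no ATAC-seq peak near its start, POT1 and TEP1 were higher in both experiments and had such a peak, and DKC1 was lower with sorafenib and had one too. Each stretch of 300 bases runs 5′ to 3′ on the strand of the gene, from 250 bases before the start to 50 bases after it, and was read from RefSeq on GRCh38.p14. The stretches lie at chr5:1295019-1295318 on the minus strand (TERT), chr7:124929776-124930075 on the minus strand (POT1), chr14:20413452-20413751 on the minus strand (TEP1) and chrX:154762614-154762913 on the plus strand (DKC1). Capitals mark the E-box CACGTG, a motif of the MYC and MAX family, and the GC box GGGCGG, a motif of SP1, found on either strand.
TERT: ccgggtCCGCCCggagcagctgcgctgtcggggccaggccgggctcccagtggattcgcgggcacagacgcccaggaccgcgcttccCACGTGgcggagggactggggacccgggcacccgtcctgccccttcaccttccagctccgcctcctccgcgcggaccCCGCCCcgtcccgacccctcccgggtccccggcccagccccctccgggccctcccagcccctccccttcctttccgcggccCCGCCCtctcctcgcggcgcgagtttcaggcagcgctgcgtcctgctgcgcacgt
POT1: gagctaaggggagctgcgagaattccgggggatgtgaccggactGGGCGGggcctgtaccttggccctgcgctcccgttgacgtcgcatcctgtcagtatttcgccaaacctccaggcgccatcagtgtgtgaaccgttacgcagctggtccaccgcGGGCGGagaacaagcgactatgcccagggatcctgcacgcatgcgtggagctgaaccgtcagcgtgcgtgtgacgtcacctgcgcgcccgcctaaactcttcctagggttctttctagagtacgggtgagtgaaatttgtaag
TEP1: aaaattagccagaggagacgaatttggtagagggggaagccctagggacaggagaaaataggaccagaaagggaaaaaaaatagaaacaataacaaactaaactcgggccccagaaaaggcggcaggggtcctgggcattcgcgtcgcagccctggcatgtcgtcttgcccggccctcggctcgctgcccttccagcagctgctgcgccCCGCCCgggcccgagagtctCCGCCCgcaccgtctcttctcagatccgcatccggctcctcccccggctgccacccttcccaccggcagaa
DKC1: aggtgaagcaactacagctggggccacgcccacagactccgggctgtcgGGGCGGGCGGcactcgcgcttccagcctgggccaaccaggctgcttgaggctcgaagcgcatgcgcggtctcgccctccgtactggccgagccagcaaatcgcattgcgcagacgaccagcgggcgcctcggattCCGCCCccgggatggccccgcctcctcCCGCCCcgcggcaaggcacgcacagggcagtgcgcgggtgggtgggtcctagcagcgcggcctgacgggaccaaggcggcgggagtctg
Promoter entries were matched for 7 of the 9 genes, all but TERF1 and TERF2. The E-box was found in 1 of the 7, TERT, at position -163 from its start, and in 7.41% of 27305 promoters of the same length. The TERT stretch ends in CACGT, and an E-box that crosses its end would have been missed. The GC box was found in 7 of 7, 3 times in TERT, and in 44.6% of all promoters. DKC1 held 4, of which a pair overlapped in the run GGGCGGGCGG. The ETS motif CCGGAA, searched only in this exact form, was found in 3 of 7 (TERF2IP, POT1 and TINF2) and in 17.6% of all promoters. Shorter ETS forms were not searched, so TERT may hold them. All promoters are those of the reference genome, and the sequence in these cells is not known. The KLF core CACCC was found in 5 of 7 (TERT, POT1, ACD, DKC1 and TEP1) and in 58.9% of all promoters. Both strands were searched, the E-box reads the same on each, and matches of different motifs shared no base.

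TERT had 354, 329.8 and 254 normalized read counts in the sorafenib libraries, against 57.4, 48.2 and 58.9 in the DMSO libraries. All 3 sorafenib libraries lay above all 3 DMSO libraries, and the lowest of them was far from the highest DMSO value. The means were 313 ± 52.3 with sorafenib and 54.8 ± 5.80 with DMSO (SD, n = 3 each), a ratio of 5.70. On the log2 scale of the normalized read count plus 1, the change was 2.48 with an SE of 0.15 and a 95% interval of 2.17 to 2.80. These levels rested on 238 to 420 reads per sorafenib library and 50 to 54 reads per DMSO library. Of 14915 genes with a mean of at least 10, 554 had a larger log2 change.

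With MT1G overexpression, TERT had 195, 145 and 209 normalized read counts, against 60.3, 74.3 and 64.2 with empty vector. Again no MT1G library reached down to the vector libraries. The means were 183 ± 33.2 with MT1G and 66.3 ± 7.23 with vector (SD, n = 3 each), a ratio of 2.76, and the log2 change was 1.44 with an SE of 0.17 and a 95% interval of 1.08 to 1.80. The reads behind it numbered 125 to 285 per MT1G library and 55 to 83 per vector library, and 160 of 13914 genes had a larger log2 change. In the authors' deposited table the log2 change of TERT was 2.52 with sorafenib and 1.47 with MT1G. The neighbour on the chromosome, CLPTM1L, whose span lies 22684 bp from that of TERT, averaged 3646 ± 122 in sorafenib libraries and 3242 ± 206 in DMSO libraries, and 3580.5 ± 312 with MT1G and 4119 ± 654 with vector (SD, n = 3 each).

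**Figure D1:**
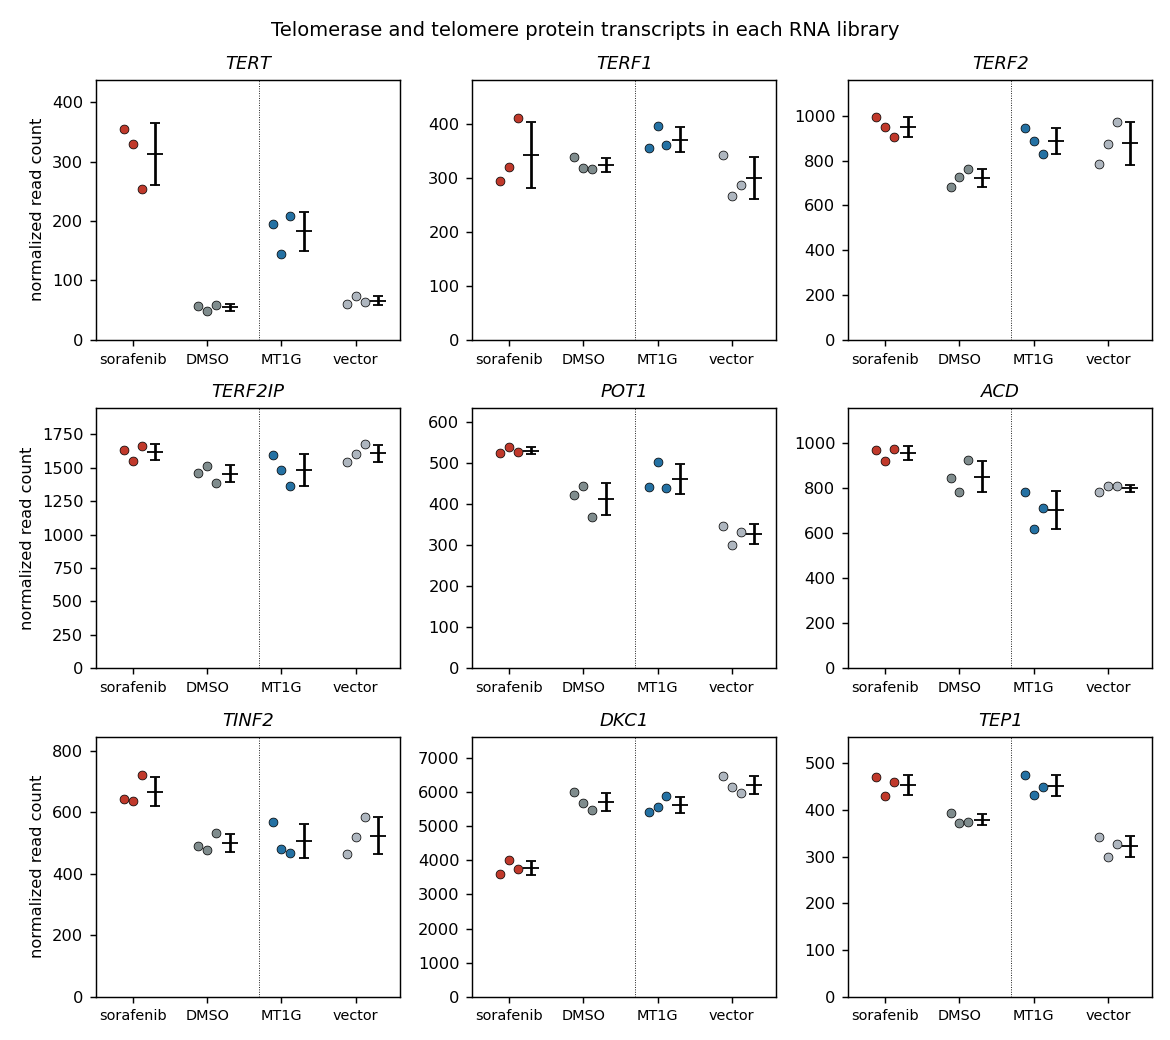
Normalized read count (linear axis from 0, one panel per gene) in each of the 12 RNA libraries, grouped as sorafenib, DMSO, MT1G overexpression and empty vector; bars show the mean and SD of 3 libraries, and a dotted line parts the experiments. TERT reached 254 or more in every sorafenib library and 145 or more in every MT1G library, and stayed at 74.3 or less in every control library, while the panels of the shelterin genes show far smaller gaps.

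Among the proteins that bind double-stranded telomeric repeats, TERF2 (TRF2), which folds the end into a loop and keeps it from being joined, was higher with sorafenib. It had 993, 951 and 907 normalized read counts with sorafenib, against 682, 728 and 762 with DMSO. The groups did not overlap, and the log2 change was 0.39 (SE 0.07). With MT1G it had 945, 888 and 829, against 783, 875 and 972 with vector. Those groups overlapped, with a log2 change of 0.02 (SE 0.10).

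TERF1 (TRF1), which limits lengthening by telomerase, had 295, 322 and 412 normalized read counts with sorafenib, against 339.7, 319 and 316 with DMSO. The groups overlapped, the third sorafenib library was the highest of the 6, and the log2 change was 0.06 (SE 0.11), or -0.08 without that library. With MT1G, TERF1 had 356, 398 and 361, against 343, 268 and 288 with vector. The MT1G libraries lay above the vector libraries by a narrow margin, with a log2 change of 0.31 (SE 0.12) that missed the threshold used for all genes.

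TERF2IP (RAP1), which rides on TERF2, had 1635, 1553 and 1665 normalized read counts with sorafenib, against 1461, 1514 and 1387 with DMSO. The groups did not overlap, but the log2 change was only 0.15 (SE 0.06, 95% interval 0.02 to 0.29). It passed the threshold with the deposited size factors and missed it with TMM factors. With MT1G it had 1596, 1486 and 1360.3, against 1542, 1602 and 1675 with vector, which overlapped, with a log2 change of -0.12 (SE 0.08).

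Of the proteins that reach the single-stranded overhang, POT1 was higher in both experiments. It had 523, 538 and 525 normalized read counts with sorafenib, against 422, 444 and 368 with DMSO, and 440.3, 501 and 438 with MT1G, against 346, 301 and 333 with vector. Neither pair of groups overlapped, and the log2 change was 0.37 (SE 0.09) with sorafenib and 0.49 (SE 0.11) with MT1G. Its antisense neighbour POT1-AS1, whose span begins 48 bp from that of POT1, had 16.9, 23.6 and 22.4 with sorafenib, against 6.75, 9.64 and 6.55 with DMSO, and 8.95, 14.0 and 9.51 with MT1G, against 8.77, 6.27 and 12.8 with vector. The spans of this pair share no base. Whether reads were counted by strand is not given in the sources used here.

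ACD (TPP1), which brings telomerase to the end and pairs with POT1, had 969, 919 and 975 normalized read counts with sorafenib, against 846, 784 and 922 with DMSO. The groups overlapped by 1 DMSO library, with a log2 change of 0.17 (SE 0.07) that missed the threshold. With MT1G it had 784, 616 and 711, against 782, 809 and 809 with vector, which overlapped, with a log2 change of -0.19 (SE 0.10). The span of ACD overlaps that of CARMIL2 by 58 bp, and how reads in that stretch were counted is not known. PARD6A, a polarity gene 700 bp from ACD, passed as lower in both experiments, at -0.71 with sorafenib and -0.59 with MT1G, unlike ACD. KARS1, a lysyl-tRNA synthetase gene 108 bp from TERF2IP, passed as lower with sorafenib at -0.22, where TERF2IP was at 0.15, and did not pass with MT1G at -0.05.

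TINF2 (TIN2), the bridge of shelterin, had 644, 636 and 722 normalized read counts with sorafenib, against 492, 478 and 533 with DMSO. The groups did not overlap, and the log2 change was 0.41 (SE 0.08), close to that of TERF2. With MT1G it had 569, 479 and 468, against 464, 521 and 585 with vector. Those groups were interleaved, with a log2 change of -0.05 (SE 0.11).

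DKC1 (dyskerin), the pseudouridine synthase that holds TERC and small nucleolar RNAs, went the other way. It had 3599, 4011 and 3736 normalized read counts with sorafenib, against 5994, 5689 and 5474 with DMSO, and all sorafenib libraries lay below all DMSO libraries. The means were 3782 ± 210.0 with sorafenib and 5719 ± 261 with DMSO (SD, n = 3 each), with a log2 change of -0.60 (SE 0.06, 95% interval -0.73 to -0.47). With MT1G it had 5417, 5574 and 5874, against 6487, 6145 and 5975 with vector. These groups did not overlap either, though the highest MT1G library lay close to the lowest vector library, and the log2 change of -0.14 (SE 0.08) missed the threshold.

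TEP1, a large protein that binds telomerase RNA and is also part of the vault particle, was higher in both experiments. It had 471, 430.4 and 459 normalized read counts with sorafenib, against 393, 371 and 373 with DMSO, and 475, 431 and 449 with MT1G, against 341, 298 and 327 with vector. No groups overlapped, and the log2 change was 0.26 (SE 0.08) with sorafenib and 0.49 (SE 0.11) with MT1G.

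**Figure D2:**
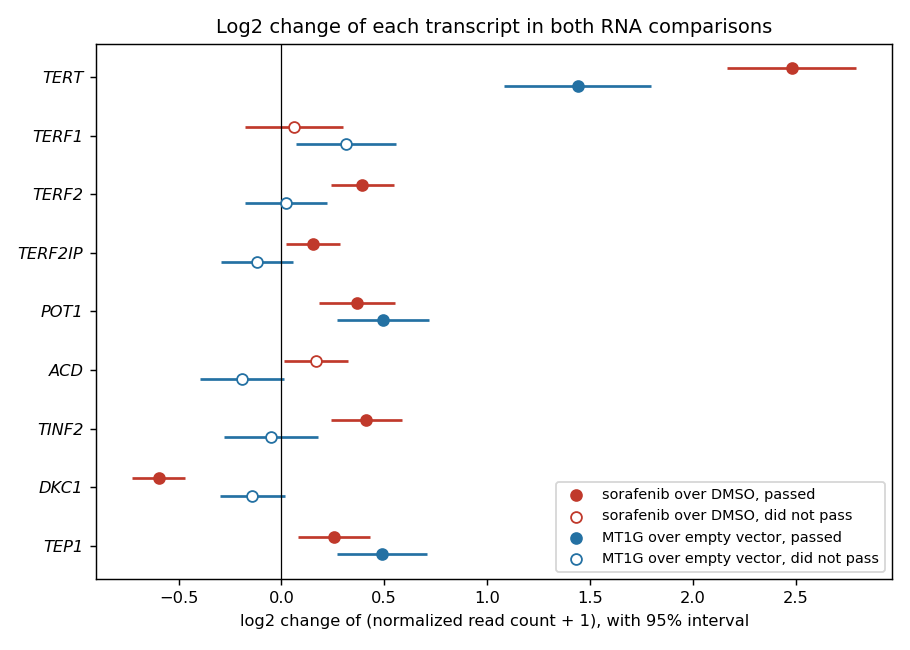
Log2 change of (normalized read count + 1) of each of the 9 genes, sorafenib over DMSO in red above and MT1G over empty vector in blue below, with 95% intervals. Filled points passed a limma adjusted p of 0.05 over all genes tested and open points did not. The genes were chosen on these data, so the filling is a description and no test of them. TERT lies at 2.48 and 1.44, DKC1 at -0.60 and -0.14, and the other 7 between -0.19 and 0.49.

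Counted at a limma adjusted p of 0.05 over all genes tested, 6 of the 9 genes passed as higher and 1 as lower with sorafenib, in a comparison where 70.3% of 14915 genes passed (34.4% higher and 35.8% lower). With MT1G 3 passed as higher and 0 as lower, where 22.8% of 13914 genes passed (11.5% higher and 11.3% lower). TERT, POT1 and TEP1 passed as higher in both, as did 4.02% of 13748 genes tested in both. Groups without overlap were seen for 6 genes as higher and 1 as lower with sorafenib, in a comparison where 73% of genes showed none (35.8% higher and 37.2% lower), and for 4 as higher and 1 as lower with MT1G, where 39.4% showed none (18.9% higher and 20.5% lower). The 9 genes were chosen on these comparisons, so nothing is read from these counts. Their median log2 change was 0.26 with sorafenib and 0.02 with MT1G, against -0.02 and -0.00 over all genes tested, and that of the 6 shelterin genes was 0.27 and -0.01.

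The levels could also be set side by side in CPM (counts scaled to the library total), although the experiments were normalized separately and no test was run across them. TERT had 17.6 ± 2.90 CPM with sorafenib, 9.20 ± 1.64 with MT1G, 3.18 ± 0.33 with vector and 2.64 ± 0.24 with DMSO (SD, n = 3 each), and no neighbours in this order overlapped. DKC1 had 213 ± 12.3 with sorafenib, below the other 3 groups, which ran from 276 to 298 and overlapped from each to the next. POT1 had 29.8 ± 0.50 with sorafenib, 23.2 ± 2.13 with MT1G, 19.9 ± 2.38 with DMSO and 15.7 ± 1.27 with vector, where the MT1G and DMSO ranges overlapped. TEP1 kept the order 25.6 ± 1.13 with sorafenib, 22.7 ± 0.64 with MT1G, 18.3 ± 0.81 with DMSO and 15.5 ± 1.20 with vector, with no overlap between neighbours. Sorafenib was also the highest group in CPM for TERF2, TERF2IP, ACD, TINF2 and TERF1, and for TERF1 its range overlapped that of MT1G. On this scale the median of all genes tested moved up by 0.22 (log2) with sorafenib and by 0.07 with MT1G, and changes on this scale are to be read relative to that shift. With scaling to library totals 8 of the 9 genes passed as higher and 1 as lower with sorafenib, with 45.7% of all genes higher and 23.5% lower, and 4 as higher and 0 as lower with MT1G, with 14.3% higher and 6.78% lower.

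The genes whose pattern over the 12 RNA libraries was closest to that of TERT were SPRY2, PMAIP1 and ELOVL3, out of 13747 compared. Likeness was the root mean square difference in log2 of the normalized read count plus 1, after each gene was centred within its table, and it was 0.25 for SPRY2, 0.26 for PMAIP1 and 0.26 for ELOVL3. SPRY2, a feedback inhibitor of receptor tyrosine kinase signalling, had 405 ± 22.0 with sorafenib and 92.9 ± 5.85 with DMSO, and 237 ± 20.0 with MT1G and 69.0 ± 6.73 with vector (SD, n = 3 each). PMAIP1 (NOXA), a pro-apoptotic BCL2 family member, had 2740.2 ± 92.6 with sorafenib and 387 ± 24.5 with DMSO, and 1119 ± 90.3 with MT1G and 327 ± 6.85 with vector. ELOVL3, a fatty acid elongase, had 158 ± 14.6 with sorafenib and 26.9 ± 2.398 with DMSO, and 79.1 ± 8.12 with MT1G and 40.7 ± 8.61 with vector. Among the telomere genes POT1 came nearest to TERT at place 2363 and DKC1 was farthest at place 11017.

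ATAC-seq peaks were a readout that the choice of genes had not used. Each library had its own peak list: 139294 and 135671 peaks covering 54.5 and 52.3 Mb with sorafenib, and 131239 and 156760 peaks covering 71.9 and 76.9 Mb with DMSO. With 2 libraries a group these are values with no test, and the read depth behind the lists is unknown. Of the 7 genes with a promoter entry, 6 had a peak within 1 kb of their start in all 4 libraries, as did 49.7% of 27305 genes. The 27305 were not limited to genes with RNA in these cells, while all 7 averaged at least 10 normalized read counts. The shares of all genes are therefore no matched background. TERT was the exception among the 7 and had no peak within 1 kb, nor within 2 kb, in any library. That held for 39.2% of the 27305 genes at 1 kb and 32.1% at 2 kb. The nearest peak downstream of the TERT start, inside the gene, began 2500 and 2557 bp away with sorafenib and 2421 and 2537 bp away with DMSO. The nearest upstream began 4404 and 4514 bp away with sorafenib and 4515 and 4488 bp away with DMSO. The promoter printed above for TERT therefore lay outside every peak in both conditions, while its RNA differed as given.

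At the other starts, each peak has a width and a fold enrichment over local background, the authors' own value, given here by its percentile in its own list. The peak at the start of POT1 was 724 and 743 bp wide with sorafenib and 913 and 852 bp wide with DMSO, and stood at percentile 99.9 and 99.7 with sorafenib and 99.4 and 99.3 with DMSO. That of TEP1 was 823 and 810 bp wide with sorafenib and 1350 and 1152 bp wide with DMSO, at percentile 79.2 and 82.7 with sorafenib and 77.1 and 78.6 with DMSO. That of DKC1 was 1383 and 1435 bp wide with sorafenib and 1660 and 1526 bp wide with DMSO, at percentile 91.8 and 93.4 with sorafenib and 74.8 and 76.3 with DMSO. All 3 peaks were narrower in both sorafenib libraries than in either DMSO library and stood at a higher percentile of their lists, which differ in length. The sorafenib lists as a whole covered fewer Mb, and the share of all peaks that changed this way was not counted. The fold enrichment itself was lower with sorafenib for TEP1, at 9.95 and 10.8, against 11.1 and 13.3 with DMSO. TERF2IP, ACD and TINF2 had a peak over the start in each library, with fold enrichments of 9.26 to 14.6 with sorafenib and 11.6 to 15.96 with DMSO. The percentile was higher with sorafenib for TERF2IP (91.6 and 89.8, against 85.1 and 84.1) and TINF2 (92.8 and 92.7, against 88.6 and 86.8). For ACD it was lower, at 76.1 and 78.2, against 79.6 and 78.5.

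Over the whole span of TERT (chr5:1253167-1295068, hg38) and 2 kb on both sides, 11 and 11 peaks were listed with sorafenib, against 5 and 8 with DMSO. Both sorafenib libraries thus had more peaks there than either DMSO library. The sorafenib lists held more weak peaks, with a −log10 q under 5, at 29369 and 27609 with sorafenib and 20796 and 13910 with DMSO. Without weak peaks TERT had 10 and 10 with sorafenib, against 3 and 7 with DMSO, an order shared by 10% of 36246 genes with any such peak. Merged, the peaks made 15 regions, of which 3 were in all 4 libraries, 5 in both sorafenib libraries and no DMSO library, and 0 in both DMSO libraries and no sorafenib library. Of the rest, 1 was in both sorafenib libraries and 1 DMSO library, 2 in 1 library of each group, and 4 in a single library. How regions over other genes split was not counted, so 5 against 0 is not shown to be particular to TERT. The 5 regions lay inside the gene, between 7.15 and 38.0 kb downstream of the start, and their highest fold enrichment was 2.62 to 4.96, against 8.05 for the strongest region, which was in all 4 libraries and began 2.42 kb from the start.

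**Figure D3:**
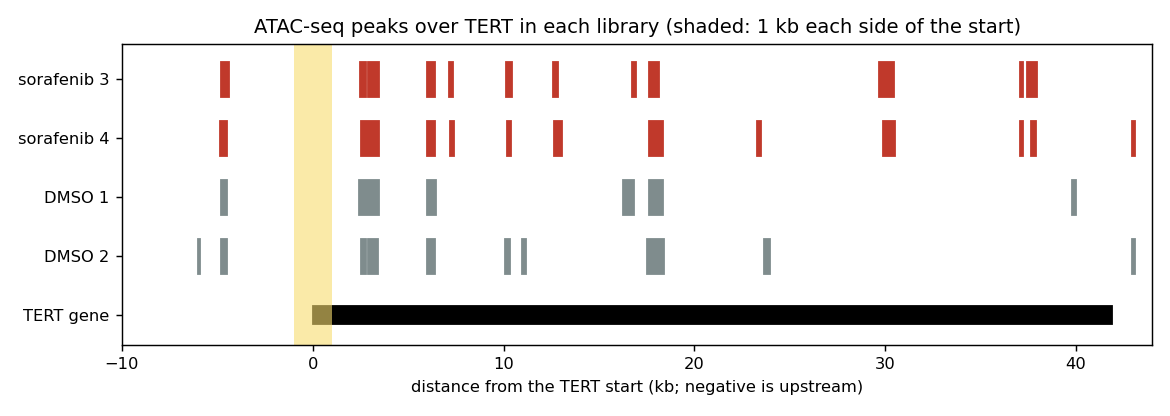
Position of each ATAC-seq peak around TERT in the 2 sorafenib and 2 DMSO libraries, as distance in kb from the start of the gene, with the gene drawn as a black bar and 1 kb on each side of the start shaded. No peak falls in the shaded stretch in any library, and the 5 regions found in both sorafenib libraries and no DMSO library lie between 7.15 and 38.0 kb.

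TEP1 (chr14:20365667-20413501) had 5 and 3 peaks over its span with sorafenib, against 2 and 2 with DMSO. POT1 (chr7:124822386-124929825) had 1 and 1 with sorafenib, against 4 and 4 with DMSO, and DKC1 (chrX:154762864-154777689) had 2 and 2, against 3 and 4. So TERT and TEP1 had more peaks in both sorafenib libraries than in either DMSO library, as did 14.4% of 38874 genes with any peak, and POT1 and DKC1 had fewer, as did 16.1%. RNA and peak number went the same way for TERT, TEP1 and DKC1 and opposite ways for POT1. For TERF2, TERF2IP and TINF2 the RNA was higher with sorafenib while the peak numbers overlapped between the groups. How often RNA and peak number go the same way over all genes was not counted. TERF2 (chr16:69355567-69386007) had 1 and 2 peaks with sorafenib, against 1 and 1 with DMSO, and TINF2 (chr14:24239640-24242674) the same numbers. TERF1, TERF2IP (chr16:75647773-75657432) and ACD (chr16:67657512-67660260) had 1 peak in each library.

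**Figure D4:**
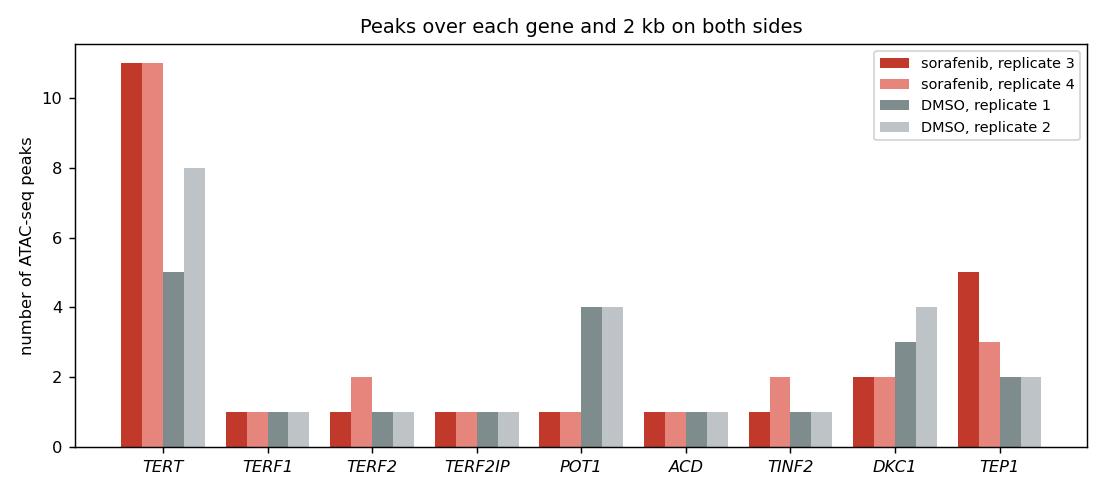
Number of ATAC-seq peaks (bars from 0) over the span of each of the 9 genes and 2 kb on both sides, in sorafenib replicates 3 and 4 (reds) and DMSO replicates 1 and 2 (greys). TERT has 11 and 11 with sorafenib, against 5 and 8 with DMSO, and POT1 has 1 and 1, against 4 and 4.

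Of 68 further genes of telomere biology, grouped in 5 lists, 65 were tested with sorafenib and 64 with MT1G. The lists and the rule for naming genes were chosen with earlier results of these data known. Most genes named below were taken for the smallest p in their list, so their adjusted p-values are a description. With sorafenib 25 rose and 25 fell, or 76.9% against 70.3% of all genes, with a median log2 change of -0.02. With scaling to library totals 29 rose and 18 fell. With MT1G 9 rose and 7 fell, or 25% against 22.8% of all genes, with a median of 0.03, and with scaling to library totals 11 rose and 3 fell. These pooled shares were near those of all genes, while the single lists ran from 66.7% to 94.1% with sorafenib and from 16.7% to 30.8% with MT1G. The list counts below stand beside 34.4% of all genes higher and 35.8% lower with sorafenib, and 11.5% and 11.3% with MT1G. With scaling to library totals these shares were 45.7% and 23.5% with sorafenib, and 14.3% and 6.78% with MT1G. The lists are small, and nothing is read from their splits by direction.

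The CST complex and its polymerase partner fill in the strand opposite the one that telomerase extends. With sorafenib 1 of 6 tested genes rose and 3 fell, or 1 and 2 with scaling to library totals, and with MT1G 0 rose and 1 fell. CTC1, the large subunit of CST, fell in both experiments: its normalized read count was 159 ± 7.20 in sorafenib cells and 459 ± 14.2 in DMSO cells (log2 change -1.52, SE 0.09, limma adjusted p = 5.4e-10), and 379 ± 17.4 in MT1G cells and 533 ± 23.1 in vector cells (log2 change -0.49, SE 0.10, limma adjusted p = 0.0014). POLA2, a subunit of DNA polymerase alpha, fell by 0.48 on the log2 scale with sorafenib (limma adjusted p = 7.1e-05). POLA1, its catalytic subunit, fell by 0.29 (limma adjusted p = 0.0033), a call that was lost at -0.06 with scaling to library totals. PRIM2, the large primase subunit, rose by 0.16 with sorafenib (limma adjusted p = 0.033). TEN1, the smallest CST subunit, had at most 2.33 normalized read counts and was not tested; its counts are uncertain, since a read-through gene shares its exons.

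Of the genes that make, trim or load the telomerase RNA, 5 of 13 tested rose and 5 fell with sorafenib, or 5 and 2 with scaling to library totals, and 0 rose and 4 fell with MT1G, or 0 and 1. TERC, whose RNA carries no poly(A) tail, had at most 1.69 normalized read counts in any of these poly(A) libraries. The dyskerin partner NHP2 fell by 0.33 with sorafenib (limma adjusted p = 0.0022) and by 0.48 with MT1G (limma adjusted p = 0.011), and missed the threshold in both with scaling to library totals, and with MT1G without MT1G replicate 1 or 2. TENT4B (PAPD5), which adds adenines to TERC and marks it for decay, had 1244 ± 83.3 with sorafenib and 480.2 ± 67.1 with DMSO (log2 change 1.38, SE 0.10, limma adjusted p = 2.2e-09). ZCCHC8, part of a nuclear RNA decay complex, rose by 0.78 (limma adjusted p = 1.2e-07). PINX1, an inhibitor of telomerase, had 625 ± 18.9 with sorafenib and 342 ± 46.6 with DMSO (log2 change 0.88, SE 0.10, limma adjusted p = 6.8e-07). PIF1, a helicase that strips telomerase from DNA ends in yeast, had 736 ± 46.4 with sorafenib and 369.8 ± 15.8 with DMSO (log2 change 0.99, SE 0.08, limma adjusted p = 1.7e-08). In the MT1G experiment PIF1 moved the opposite way, at 234 ± 24.7 in MT1G cells and 348 ± 62.8 in vector cells (log2 change -0.56, SE 0.13, limma adjusted p = 0.0049). TENT4B, ZCCHC8 and PINX1 did not pass with MT1G, with log2 changes of 0.06, 0.11 and 0.03.

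Among nucleases, helicases and end-joining factors, 4 of 17 rose and 8 fell with sorafenib, or 6 and 6 with scaling to library totals, and 4 rose and 0 fell with MT1G. EXO1, which resects the 5′ strand, had 2462 ± 94.2 with sorafenib and 1073 ± 116 with DMSO (log2 change 1.20, SE 0.08, limma adjusted p = 7.4e-10). WRN, the helicase lost in Werner syndrome, rose by 0.75 (limma adjusted p = 3.1e-07). SLX4, a scaffold for nucleases, fell by 0.84 (limma adjusted p = 2.7e-07), and XRCC5 (Ku80) fell by 0.66 (limma adjusted p = 1.1e-07). With MT1G these 4 did not pass, with log2 changes of -0.06 for EXO1, 0.10 for WRN, -0.07 for SLX4 and 0.07 for XRCC5.

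Among proteins of telomeric chromatin, 4 of 12 rose and 4 fell with sorafenib, or 5 and 3 with scaling to library totals, and 1 of 11 rose and 1 fell with MT1G. ZBTB10, a zinc finger protein that binds variant telomere repeats, had 318 ± 45.1 with sorafenib and 14.6 ± 3.24 with DMSO (log2 change 4.37, SE 0.19, limma adjusted p = 7.6e-12), a larger change than that of TERT, and was too low to be tested with MT1G. ZBTB48 (TZAP), which trims long telomeres, rose by 1.10 (limma adjusted p = 3.2e-08). Of a pair of orphan receptors that bind variant repeats, NR2C1 rose by 0.72 (limma adjusted p = 8.7e-07) and NR2C2 had 621 ± 33.8 with sorafenib and 1448 ± 161 with DMSO (log2 change -1.21, SE 0.08, limma adjusted p = 2.0e-09). With MT1G, ZBTB48, NR2C1 and NR2C2 did not pass, with log2 changes of -0.08, 0.27 and 0.06.

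Of factors known to bind or act on the TERT promoter, 11 of 17 tested rose and 5 fell with sorafenib, or 12 and 5 with scaling to library totals, and 4 rose and 1 fell with MT1G, or 6 and 0. That is 94.1% of the list, against 70.3% of all genes (34.4% higher and 35.8% lower, or 45.7% and 23.5% with scaling to library totals), with sorafenib, and 29.4%, against 22.8%, with MT1G; the list was chosen with earlier results known. The median log2 change of this list was 0.44 with sorafenib and 0.12 with MT1G. KLF4 had 652 ± 37.6 with sorafenib and 80.8 ± 4.77 with DMSO (log2 change 3.00, SE 0.10, limma adjusted p = 4.9e-13), and 429 ± 27.03 in MT1G cells and 58.3 ± 4.76 in vector cells (log2 change 2.86, SE 0.14, limma adjusted p = 3.7e-12). MXD1, which pairs with MAX at E-boxes and represses, had 785 ± 68.5 with sorafenib and 363 ± 36.4 with DMSO (log2 change 1.11, limma adjusted p = 2.1e-08), and 709 ± 31.1 in MT1G cells and 283 ± 14.5 in vector cells (log2 change 1.32, limma adjusted p = 4.9e-09). ETS1 had 1965 ± 41.6 with sorafenib and 634 ± 49.9 with DMSO (log2 change 1.63, limma adjusted p = 8.1e-12) and did not pass with MT1G, at -0.12. CTNNB1 (beta-catenin) had 3494 ± 90.2 with sorafenib and 7154 ± 270.2 with DMSO (log2 change -1.03, limma adjusted p = 1.2e-10) and did not pass with MT1G, at 0.12. MYC rose by 0.61 with sorafenib (limma adjusted p = 3.7e-08) while its partner MAX fell by 0.78 (limma adjusted p = 1.7e-07), and neither passed with MT1G, at -0.10 and -0.14. SP1, which binds GC boxes, had 1595 ± 53.9 with sorafenib and 3431 ± 327 with DMSO (log2 change -1.10, limma adjusted p = 7.2e-10) and did not pass with MT1G, at 0.02. MYC, MAX and SP1 were named after their values were seen, as was NHP2. WT1 was too low to be tested.

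**Figure D5:**
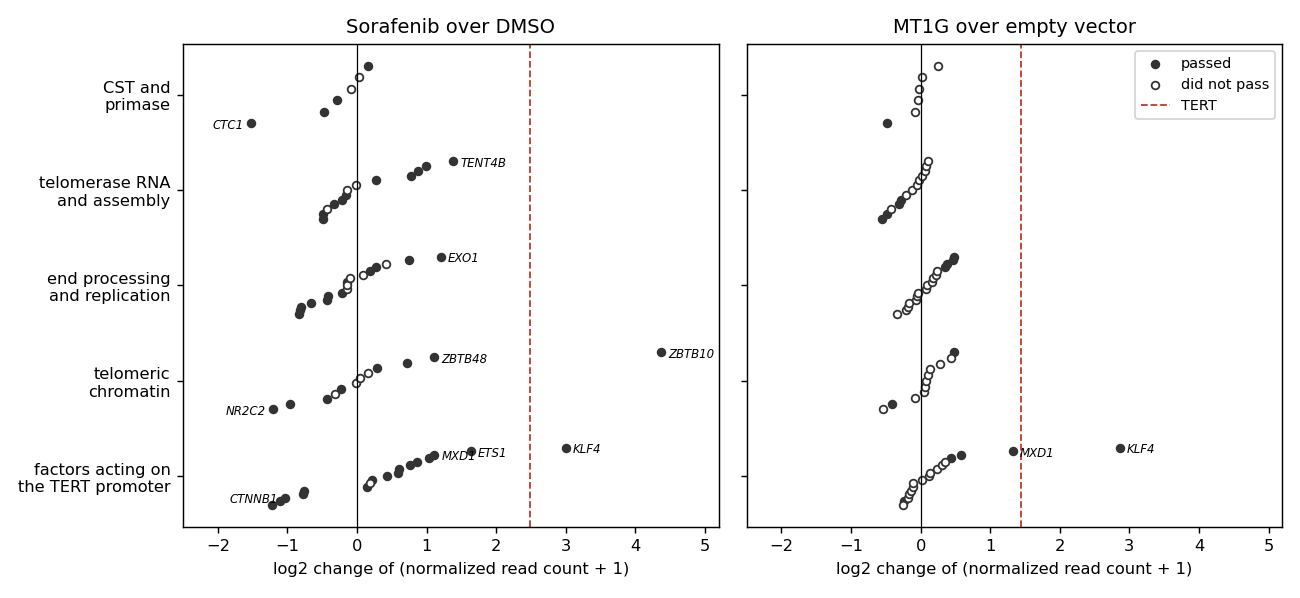
Log2 change of (normalized read count + 1) of the further telomere genes in 5 lists, sorafenib over DMSO on the left and MT1G over empty vector on the right; each point is a gene, filled where it passed a limma adjusted p of 0.05, and the dashed line marks TERT. ZBTB10 and KLF4 with sorafenib and KLF4 with MT1G lie to the right of TERT, and CTC1 is the lowest gene with sorafenib at -1.52.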

How the data were processed

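RNA-seq of 12 libraries and ATAC-seq of 4 were analysed in groups named by the sample titles. The RNA tables name their columns only as numbered treatment and control, so a column was given a group from the comparison its table holds; replicate numbers of RNA libraries are those of the column names and may differ from the numbers in the titles. MACS2 2.2.7.1, Bowtie2 2.4.1, Picard, featureCounts 1.6.1, HISAT2, cutadapt, SAMtools and DESeq2, and the genome build hg38, are named without roles, per the submitters' processing notes. The RNA signal, normalized read counts, was made by the authors by dividing reads per gene by a size factor per library: multiplied back, 100% of values were whole within 0.001, and on the reads of the sorafenib table edgeR called 10443 genes and DESeq2 9931, against 10484 with limma. The authors' deposited table gave log2 changes. The deposited peak lists, called per library, gave a ratio (fold enrichment) and a −log10 q per peak, whose lowest values were those of a q of 0.05.

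limma 3.58.1 (R 4.3.3, trend, robust, two-sided) was run for genes averaging 10 or more over the 6 libraries, on log2 of the normalized read count plus 1, with Benjamini-Hochberg adjustment over all genes and a threshold of 0.05. Scripts were tested on simulated data. The members, lists and naming rule were chosen with earlier results of these data known. From each list, the up to 4 genes with the smallest p past the threshold in either comparison were named, and TERC. Neighbours were genes next to a member or starting within 1 kb of it in RefSeq. Alternatives were TMM factors, no filter, pseudocounts of 0.5 and 5, DESeq2 1.42.0 and edgeR 4.0.16 on the reads recovered from the sorafenib table, a block for the replicate number, a minimum log2 change, each library left out and, chosen after seeing the data, scaling to library totals. Fold changes on the log2 scale with a pseudocount understate changes of low genes. The sequence tables gave promoters of 7 members, on GRCh38.p14. Transcript lengths were not used here, so levels were not compared between genes.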

Additional observations from a re-analysis of the deposited data

Results flagged for a closer look

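The direction of PIF1 and CTNNB1 differed between the experiments: every library of the treated group lay on one side of its controls in one experiment and on the other side in the other. PIF1 changed by 0.99 on the log2 scale with sorafenib and by -0.56 with MT1G overexpression. CTNNB1 changed by -1.03 with sorafenib and by 0.12 with MT1G overexpression, where it did not pass the threshold. PIF1 and CTNNB1 were not the only such genes among the further telomere genes. Without overlap, ATM, ATRX and MRE11 were lower with sorafenib and higher with MT1G, and passed the threshold in both. RTEL1, DCLRE1B, E2F1 and CTCF were higher with sorafenib and lower with MT1G, also without overlap, but did not pass with MT1G. RTEL1 did not pass with sorafenib either. The share of all genes with such a pattern was not counted. The difference between the experiments was not tested for any of these genes.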

How the results depend on the processing

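With a minimum absolute log2 change of 1, the telomere genes past the threshold numbered 1 (TERT) with sorafenib and 1 (TERT) with MT1G, and the further genes 13 and 2. The shares of all genes that passed with this minimum, or with a library left out, were not counted. These numbers therefore show only how the counts move with the setting. Leaving out each library in turn gave 6 to 7 and 3 to 4 of the 9 genes, 43 to 51 and 10 to 21 of the further genes, and 6 of 7 starts with a peak; the 10 came without MT1G replicate 2. The log2 change of TERT stayed between 2.38 and 2.62 with sorafenib and between 1.34 and 1.596 with MT1G in those fits. Directions turned for TERF1 with sorafenib (-0.076 to 0.16, lowest without sorafenib replicate 3), TERF2 with MT1G (-0.057 to 0.099, at -0.025 without MT1G replicate 1 and -0.057 without vector replicate 1) and TINF2 with MT1G (-0.14 to 0.034, at 0.0032 without MT1G replicate 3 and 0.034 without vector replicate 3, and 0.018 with scaling to library totals), none of which had passed. TERF2IP with sorafenib lost its call with TMM factors (0.14), without a filter and with the replicate block (0.15 each), and without sorafenib replicate 1 or 3 or DMSO replicate 1 or 3. ACD with sorafenib passed with edgeR (0.20), DESeq2 (0.19), scaling to library totals (0.39) and without DMSO replicate 3 (0.23), and TERF1 with scaling to library totals (0.29) and, with MT1G, scaling to library totals (0.38) or without vector replicate 1 (0.42). PRIM2 lost its call without a filter, with the block and without sorafenib replicate 1, 2 or 3 or DMSO replicate 1, and POLA1 with scaling to library totals. The cause of these shifts was not tested. Same-numbered libraries correlated at -0.03, 0.03 and -0.06 with sorafenib and -0.14, 0.04 and -0.06 with MT1G in their deviations from the group means. These values cannot decide whether samples were paired, since the column numbers may differ from those in the titles. The replicate block gave 6 of the 9 genes with sorafenib and 3 with MT1G. Count tests were not run on the MT1G table, where the size factor of 1 library is within 1% of 1. Keeping only peaks whose −log10 q reached 5 (for peaks over gene spans chosen after seeing the data), and windows of 500 bp and 2 kb also gave 6 of 7 starts. TERT rested on 50 to 83 reads per control library.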

Other observations

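Of the further telomere genes, 15 passed the limma threshold in both experiments. HIF1A, KLF4, MXD1 and SP3 were higher in both, at log2 changes of 1.03, 3.00, 1.11 and 0.44 with sorafenib and 0.58, 2.86, 1.32 and 0.44 with MT1G. ASF1B, CTC1, MEN1, NHP2 and RUVBL2 were lower in both, at -0.42, -1.52, -0.76, -0.33 and -0.48 with sorafenib and -0.41, -0.49, -0.24, -0.48 and -0.28 with MT1G. The other 6 went opposite ways. The DNA damage kinase ATM, the chromatin remodeller ATRX, the nuclease MRE11 and RIF1 fell with sorafenib, by 0.82, 0.97, 0.41 and 0.81 on the log2 scale, and rose with MT1G, by 0.48, 0.47, 0.36 and 0.46. PIF1 and WRAP53, which carries telomerase to Cajal bodies, rose by 0.99 and 0.27 with sorafenib and fell by 0.56 and 0.31 with MT1G. With scaling to library totals all 15 kept their directions in both experiments, but MEN1, NHP2, RUVBL2 and WRAP53 missed the threshold with MT1G and NHP2 with sorafenib. These genes were named for passing in both, after their values were seen, and the difference between experiments was not tested.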
